A study of Mus musculus with 8 samples.

Results

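A set of 10 genes of prostaglandin and leukotriene metabolism were followed in myeloid cells sorted from MC38 colon carcinomas and from blood of mice bearing them. The genes were chosen by name, as Ptgs1, Ptgs2, Ptges, Ptger2, Ptger4, Hpgd, Hpgds, Alox5, Alox5ap and Lta4h, which are 10 of the 32285 genes in the deposited matrices. CD45+CD11b+Ly6Chi cells were sorted 3 days after tumors had received 0 or 20 Gy of ionizing radiation (IR) as 1 dose. There were 4 droplet libraries, 1 for each tissue and dose, and in each of them were pooled cells of Ythdf2 fl/fl mice without Cre (WT) and of Lyz-Cre;Ythdf2 fl/fl mice (Ythdf2-cKO). Both genotypes therefore carried floxed Ythdf2 alleles, and Cre came from the Lyz2 locus, whose promoter works in myeloid cells and not in tumor cells or lymphocytes. Hashtag antibodies marked the genotypes, B0301 for WT and B0302 for cKO, and cells of 5 mice were pooled per group. The 8 groups were thus 1 pool each, with no replicates, so no test, p-value or standard error is given, and every interval covers counting error at the 95% level only. Each tissue and dose was also its own library, so neither IR nor tissue can be told apart from library.

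Prostaglandins and leukotrienes are lipid mediators made from arachidonic acid that phospholipases release from membranes. The cyclooxygenases COX-1 and COX-2 turn it into prostaglandin H2, which terminal synthases convert further, for example to prostaglandin E2 or prostaglandin D2. Prostaglandin E2 acts through receptors such as EP2 and EP4 and is broken down by a dehydrogenase. In the other branch, 5-lipoxygenase and its activating protein make leukotriene A4, from which a hydrolase makes leukotriene B4, an attractant of neutrophils. COX-2 is known as an inducible enzyme of inflamed tissue and tumors, and the 5-lipoxygenase branch is known from granulocytes and macrophages.

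All 10 members were located by identifier on the mm10 build in GENCODE vM21, and all are protein-coding. Ptgs1 (COX-1) lies on chromosome 2 at 36230426 to 36252272 (forward strand), and Ptgs2 (COX-2) on chromosome 1 at 150100031 to 150108227 (forward). Ptges, the synthase of prostaglandin E2, lies on chromosome 2 at 30889471 to 30929863 (reverse), and Hpgds, the hematopoietic synthase of prostaglandin D2, on chromosome 6 at 65117293 to 65144908 (reverse). The receptor genes Ptger2 (EP2) and Ptger4 (EP4) lie on chromosome 14 at 44988195 to 45003820 (forward) and on chromosome 15 at 5206661 to 5244187 (reverse). Ptger4 overlaps the protein-coding gene Ttc33 of the other strand. Hpgd, the dehydrogenase that inactivates prostaglandin E2, lies on chromosome 8 at 56294585 to 56321043 (forward). Of the leukotriene branch, Alox5 (5-lipoxygenase) lies on chromosome 6 at 116410077 to 116461178 (reverse), Alox5ap (its activating protein) on chromosome 5 at 149264767 to 149288153 (forward) and Lta4h (leukotriene A4 hydrolase) on chromosome 10 at 93453411 to 93484875 (forward).

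Promoter sequences are given for Ptgs2, the member on which most differences below turn, and for Ptgs1 and Hpgds, which were highest in the same tumor macrophage cluster and fell after IR. They run 5′ to 3′ on the gene's own strand from 250 bases before to 50 bases after the RefSeq start (GRCm38.p6, the same build as mm10), and capitals mark motif matches on either strand. The Ptgs2 window is chr1:150099781-150100080, forward strand, the Ptgs1 window is chr2:36230176-36230475, forward strand, and the Hpgds window is chr6:65144681-65144980, reverse strand.
Ptgs2: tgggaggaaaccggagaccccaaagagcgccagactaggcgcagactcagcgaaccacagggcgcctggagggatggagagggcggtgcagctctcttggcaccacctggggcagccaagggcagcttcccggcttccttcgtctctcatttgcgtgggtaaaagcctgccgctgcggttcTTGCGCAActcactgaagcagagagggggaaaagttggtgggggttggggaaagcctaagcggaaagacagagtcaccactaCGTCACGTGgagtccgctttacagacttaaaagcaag
Ptgs1: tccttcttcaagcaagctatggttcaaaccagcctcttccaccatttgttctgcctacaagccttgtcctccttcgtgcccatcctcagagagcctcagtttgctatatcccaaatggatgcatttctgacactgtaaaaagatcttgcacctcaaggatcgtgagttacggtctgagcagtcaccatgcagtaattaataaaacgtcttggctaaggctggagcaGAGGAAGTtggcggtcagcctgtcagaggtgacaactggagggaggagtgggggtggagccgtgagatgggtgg
Hpgds: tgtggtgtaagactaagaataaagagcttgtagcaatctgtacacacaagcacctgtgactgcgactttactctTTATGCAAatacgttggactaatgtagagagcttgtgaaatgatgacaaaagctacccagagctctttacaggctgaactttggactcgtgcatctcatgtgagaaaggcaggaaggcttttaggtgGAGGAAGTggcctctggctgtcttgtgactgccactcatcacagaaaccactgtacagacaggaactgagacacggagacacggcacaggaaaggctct
In the Ptgs2 window the capitals are a C/EBP motif (TTGCNNAA) and an E-box (CACGTG) that overlaps the reverse complement of a cyclic AMP response element core (TGACG). These motifs were found in 10.8%, 7.15% and 20.8% of the 32851 promoters of the table. The Ptgs1 and Hpgds windows each hold a PU.1 motif (GAGGAAGT), found in 3.20% of promoters and in 0 of the 7 other member promoters searched (Alox5ap was not searched), and Hpgds holds a C/EBP motif as well. AP-1 (TGANTCA), NF-kB and interferon-stimulated response element motifs were searched in the same way and were in 0 of the 9 member promoters, a statement about these letters in this window only. A TATA motif (TATAAA) was in Hpgd and a C/EBP motif in Ptger2. The motifs were chosen after the sequences had been seen, so these matches describe letters only, and no binding was measured.

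After filtering, 30239 cells were kept, 2261 to 5101 per group. Cells of tumor control had a median of 7354 unique molecular identifiers (UMIs), those of tumor IR 6149, and blood cells 2965 without and 2868 with IR. The tumor matrices shared 12558 barcodes, and 55.7% of tumor control and 38.4% of tumor IR barcodes carried fewer than 20 hashtag UMIs in their own matrix and were left out. A cell's UMIs could therefore stand in both tumor matrices, and the tumor results were also computed with the UMIs of each barcode added over both matrices. Of the 111 member ratios, 0 moved out of their counting interval. These 111 include ratios within blood, which the adding could not change. Of the cells labelled WT in tumor control, 59.8% had less than 4 times as many B0301 as B0302 UMIs (23.6% in tumor IR, at most 2.78% in blood). Requiring that ratio of WT cells too, called the stricter hashtag rule below, moved 27 of the 111 member ratios out of their counting interval. Ratios among cKO cells only, also part of the 111, could not change under it. Ythdf2 UMIs went against the label (57.2 CPM, counts per 1000000 gene UMIs, in WT and 374 CPM in cKO cells of tumor control; 34.0 and 301.98 CPM in blood control). Where these tags lie relative to the deleted part was not examined, and the higher Ythdf2 level in cKO cells was not explained. Lyz2, the Cre locus, fell as labelled (6769 to 106 CPM and 13811 to 146 CPM). WT and cKO below are hashtag labels.

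The cells were not one type. By marker genes, blood held mostly neutrophil-like cells (12710 cells), nonclassical monocyte-like cells (2338) and monocyte-like cells (1972), and tumor mostly macrophage-like cells (6357). These tumor clusters stayed unnamed: cluster 7 (1956 cells, led by Dmkn and Cxcl10), cluster 11 (1183 cells, led by interferon-induced genes), cluster 12 (605 cells, led by Ccl3 and G0s2) and cluster 4 (421 cells of low depth). The sorted surface proteins were not read in every class: Ly6c2, a gene of the sorted Ly6C surface protein, was at 157 CPM in neutrophil-like and 2113 CPM in blood monocyte-like cells, and fibroblast-like tumor cells (539 cells) had 10.2 CPM of Ptprc, which encodes CD45, and 10.1 CPM of Itgam, which encodes CD11b, although the gate would remove fibroblasts and lymphocytes. Clusters and classes were formed without the 10 genes and without the wider pathway list. In sums over cells, fewer cells of a type and less RNA per cell cannot be told apart.

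The prostanoid synthesis genes were read from different cells. Ptgs2 was found mainly in tumor macrophage-like cells (1370 CPM, 78.6% of the tumor's Ptgs2 UMIs from 51.7% of its cells) and in blood neutrophil-like cells (657 CPM, 92.3% of the blood's). It reached 2924 CPM in cluster 12 and 1693 CPM in cluster 4, and was lower in clusters 11 (809 CPM) and 7 (340 CPM). Tumor dendritic cell-like (85.2 CPM) and T cell-like cells (35.5 CPM) and blood monocyte-like cells (8.3 CPM) stood at the low end. Free RNA, read from barcodes ranked 45000 to 90000, held 949.7 and 954 CPM of Ptgs2 in the tumor libraries and 404 and 391.5 CPM in blood. Blood B cell-like cells, which should lack the gene, were at 66.8 CPM (25 UMIs in 79 cells). The blood monocyte-like and nonclassical monocyte-like levels (8.3 and 59.5 CPM) lay below that, and whether they are background was not tested. Ptgs2 UMIs were also concentrated: the tenth of cells with the most Ptgs2 UMIs held 48.2% to 75.7% of them across the 8 groups, and single cells reached 145 UMIs.

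Ptgs1 and Ptges had the fibroblast-like class, named by markers only, as their highest. Ptgs1 was at 50.2 CPM in fibroblast-like, 28.2 CPM in macrophage-like and 10.2 CPM in neutrophil-like cells. Within the macrophage-like class it was at 89.1 CPM in cluster 2, led by Fcrls, Ccl8 and Folr2, against 17.5 CPM in cluster 1 (led by Mmp12, Cxcl3 and Spp1) and 7.6 CPM in cluster 0 (led by Cxcl9 and class II genes). Ptges was at 78.6 CPM in fibroblast-like cells, which were 4.39% of tumor cells and held 59.8% of tumor Ptges UMIs. Among macrophage-like cells it was at 23.5 CPM in cluster 1, 3.15 CPM in cluster 0 and 3.17 CPM in cluster 2. Ptges was nearly absent from blood, with 14 to 26 UMIs per group. Hpgds followed the Ptgs1 cluster: 58.1 CPM in cluster 2, 4.0 CPM in cluster 1 and 1.2 CPM in cluster 0.

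Pairs of members met in the same macrophage-like cells. Of 430 macrophage-like cells with an Hpgds UMI, 46.0% also held a Ptgs1 UMI, against 10.5% of the other macrophage-like cells, with median depths of 10180 and 7107 UMIs. Of 315 macrophage-like cells with a Ptges UMI, 88.6% held Ptgs2, against 70.8% of the others, at median depths of 7490 and 7262 UMIs. Ptgs1 was not more frequent there, at 7.94% against 13.1%. These shares are of cells with a UMI and were not thinned to a common depth.

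The receptor genes and Hpgd had other sources. Ptger4 was highest in mature dendritic cell-like cells (164 CPM in 152 tumor cells), then in tumor dendritic cell-like (56.6 CPM) and macrophage-like cells (33.1 CPM), and was at 0.7 CPM in fibroblast-like cells. Ptger2 was at 17.6 CPM in blood neutrophil-like and 9.1 CPM in macrophage-like cells. Hpgd was highest in nonclassical monocyte-like cells (261 CPM) and blood dendritic cell-like cells (202 CPM), followed by blood monocyte-like cells (60.1 CPM) and cluster 7 (33.2 CPM). Neutrophil-like cells, with 2.0 CPM of Hpgd, were the class in which blood Ptgs2 was highest. In blood the COX-2 gene and the prostaglandin-degrading gene were thus read mostly from different cell classes. Some cells held UMIs of both. Of 1263 blood nonclassical monocyte-like cells with an Hpgd UMI, 15.04% also held a Ptgs2 UMI, against 17.3% of the others. The shares were 6.87% and 6.44% in blood monocyte-like cells, and 12.28% and 10.62% in blood dendritic cell-like cells. Whether these Ptgs2 UMIs are background was not tested.

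Of the leukotriene branch, blood Alox5 was read mostly from neutrophil-like cells, which held 47.5% of blood Alox5ap and 24.1% of blood Lta4h UMIs. Alox5 was at 142 CPM in neutrophil-like cells, which held 88.3% of blood Alox5 UMIs, and at 15.96 CPM in nonclassical and 8.8 CPM in other monocyte-like cells. Thinned to 1000 UMIs per cell, 12.9% of neutrophil-like cells held an Alox5 UMI, against 0.45% of blood NK cell-like cells (unthinned 30.3% and 2.203%, at median depths of 2528 and 3348 UMIs). Alox5ap was at 2181 CPM in neutrophil-like, 1745 CPM in monocyte-like, 1562 CPM in nonclassical monocyte-like and 703 CPM in tumor macrophage-like cells, and at 18.4 CPM in fibroblast-like cells. Lta4h ranged from 5.0 CPM in cluster 12 to 122 CPM in blood NK cell-like cells, and within the neutrophil-like class it was at 237 CPM in the 127 cells of cluster 20, led by the granule genes Ltf, Ngp and Camp, against 12.1 to 18.9 CPM in clusters 15 to 18.

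**Figure D1:**
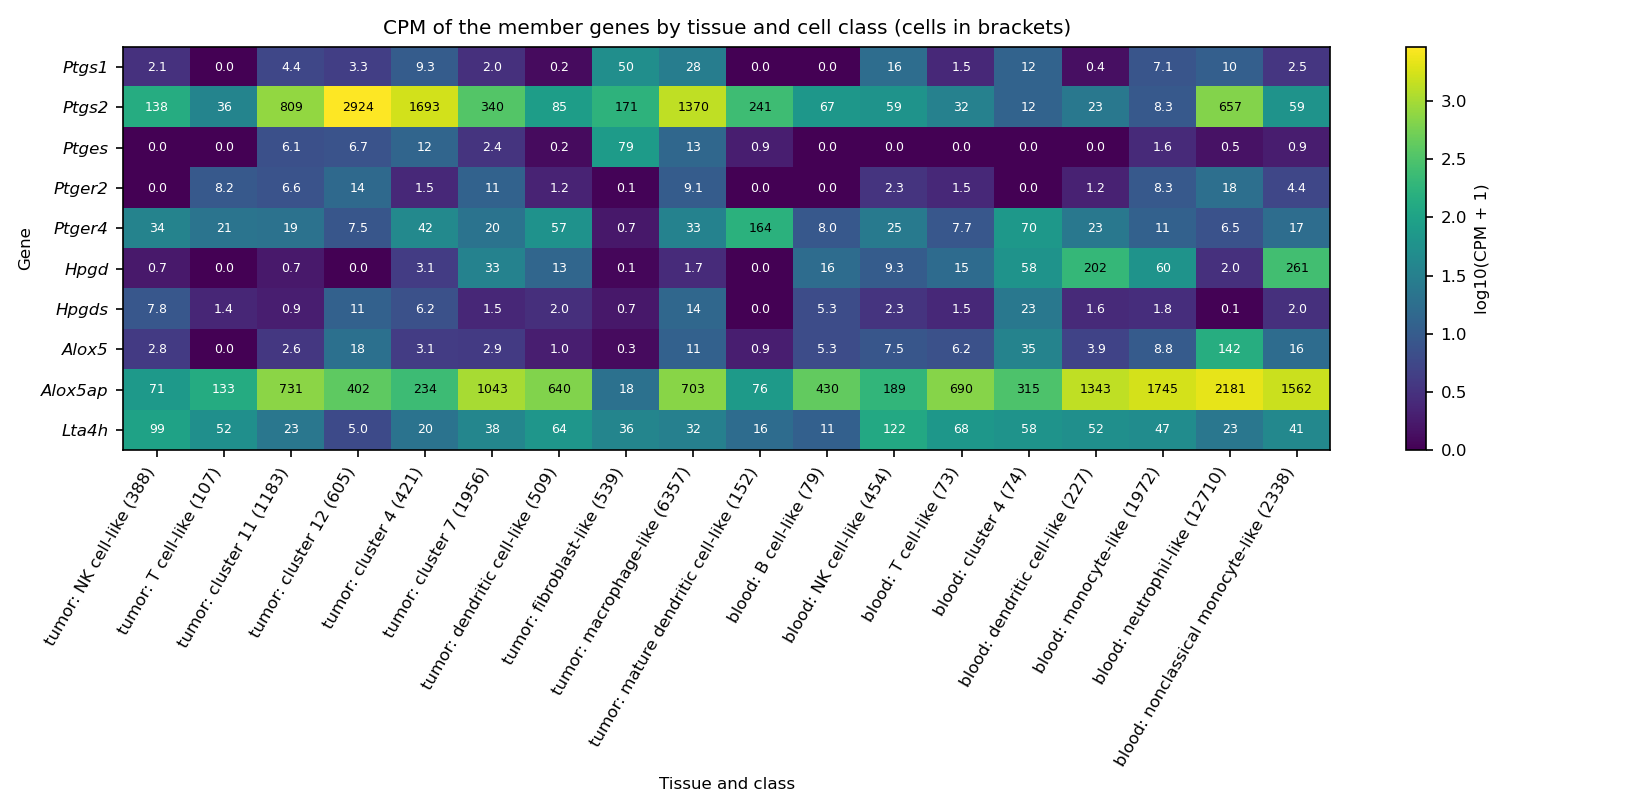
CPM of the 10 member genes (rows) in each tissue and cell class of at least 50 cells (columns, number of cells in brackets), with color showing log10 of CPM plus 1. Ptgs2 is highest in cluster 12 (2924 CPM), Ptges in fibroblast-like cells (78.6 CPM), Hpgd in nonclassical monocyte-like cells (261 CPM) and Alox5 in neutrophil-like cells (142 CPM).

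**Figure D2:**
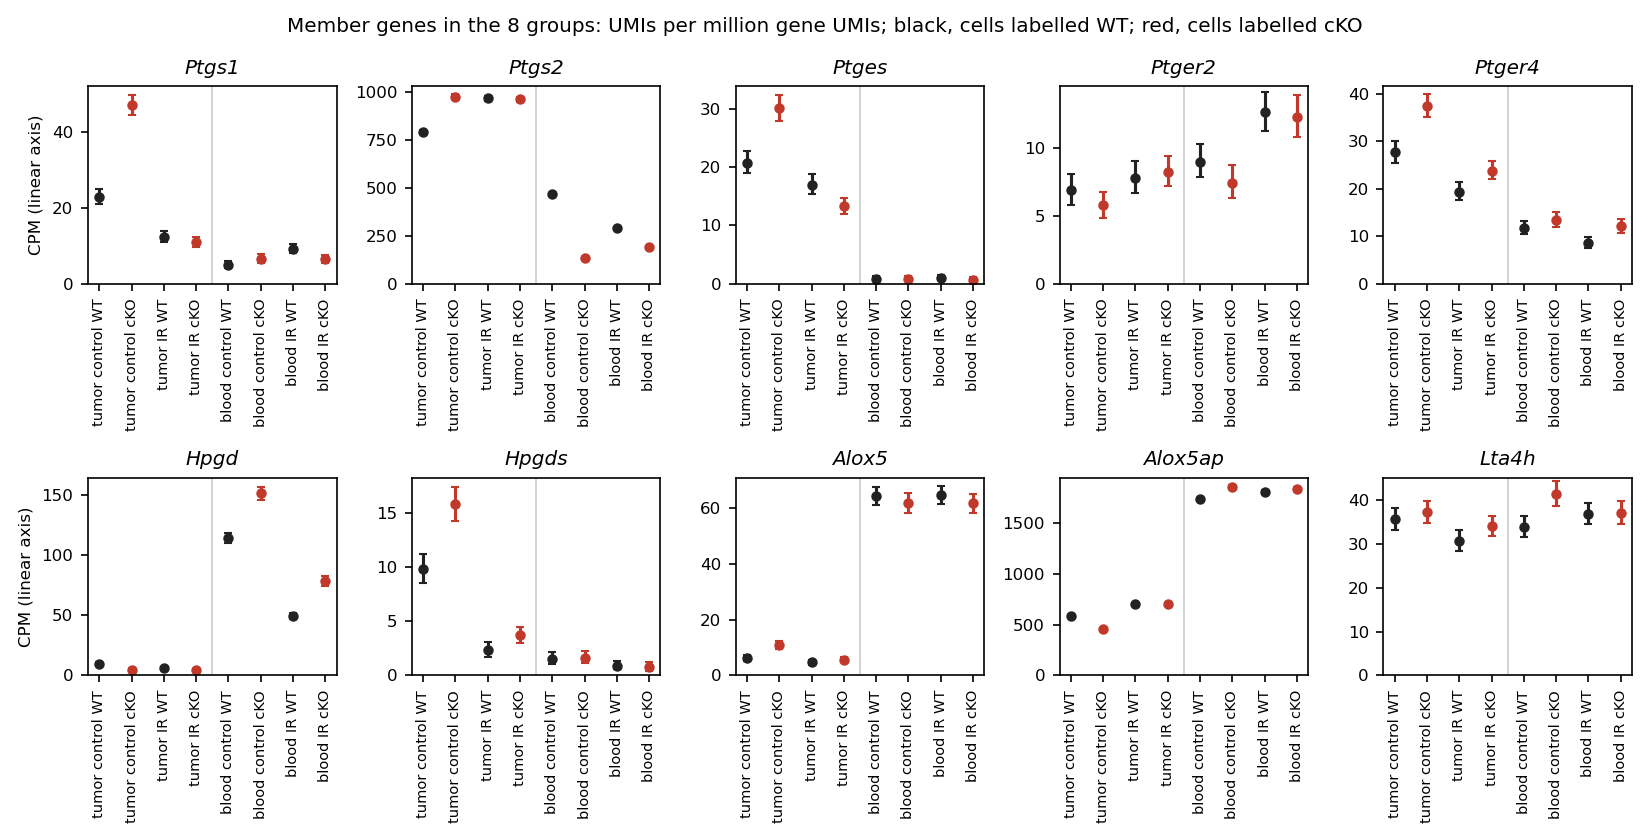
CPM of each member in the 8 groups on linear axes from 0, with exact Poisson intervals; black points are cells labelled WT and red points cells labelled cKO, tumor to the left and blood to the right of the line. Ptgs1, Ptges and Hpgds are highest in the cKO group of tumor control, and Ptgs2 is lowest in the cKO group of blood control (137 CPM).

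IR in tumor was examined first, as the comparison of irradiated with control tumors. Among cells labelled WT, 1 of 10 members had an absolute log2 ratio of at least 1, called the limit here (genes of at least 100 UMIs over both groups), which was Hpgds, lower after IR, and 6.48% of all genes tested passed. Among cells labelled cKO, 3 of 10 members passed, namely Ptgs1, Ptges and Hpgds, all lower, against 22% of all genes. The median log2 ratio of the members was −0.36 in WT and −0.39 in cKO cells, beside −0.14 and −0.18 over all genes tested.

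Hpgds fell in both genotypes. It was at 9.8 CPM in control WT, 2.3 CPM in IR WT, 15.8 CPM in control cKO and 3.7 CPM in IR cKO cells. The log2 ratios were −2.06 (−2.54 to −1.63) and −2.09 (−2.43 to −1.77). Both control groups, which shared a library, were above both irradiated groups, which shared another. Within macrophage-like cells the ratios were −2.03 and −2.28. Cluster 2, where Hpgds was highest, fell in size from 248 to 102 WT and from 586 to 132 cKO cells. Inside cluster 2 Hpgds was at 68.2 CPM in control and 19.5 CPM in IR WT cells (7 UMIs), and at 56.5 and 56.3 CPM in cKO cells, so that in cKO cells its level within the cluster differed by less than the counting interval (−0.58 to 0.52).

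Ptgs1 fell from 23.0 to 12.5 CPM in WT cells and from 47.2 to 10.9 CPM in cKO cells, log2 ratios of −0.88 (−1.10 to −0.67) and −2.10 (−2.30 to −1.92). Both irradiated groups were near the same level, and the groups differed mainly in their controls. In macrophage-like cells the ratios were −0.82 and −2.18. In fibroblast-like cells they were 0.14 (−0.22 to 0.49) and 0.29 (−0.07 to 0.64), at 48.4 to 59.2 CPM in the 4 tumor groups. In cluster 2 Ptgs1 itself was lower after IR, at 36.2 against 81.5 CPM in WT and 38.7 against 99.4 CPM in cKO cells. In cluster 1 the genotypes went apart, from 12.9 to 18.4 CPM in WT (0.50, 0.04 to 0.99) and from 26.1 to 14.4 CPM in cKO cells (−0.85, −1.21 to −0.50).

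Ptges had opposite signs over all cells and within macrophage-like cells. Over all kept cells it went from 20.8 to 17.01 CPM in WT and from 30.05 to 13.3 CPM in cKO cells, log2 ratios of −0.29 (−0.49 to −0.09) and −1.18 (−1.36 to −0.99). In macrophage-like cells it rose from 13.6 to 21.1 CPM in WT, a log2 ratio of 0.63 (0.33 to 0.94), and from 6.2 to 15.3 CPM in cKO, a ratio of 1.29 (0.94 to 1.67). Control tumors held 131 WT and 269 cKO fibroblast-like cells, irradiated tumors 88 and 51, with 68.8 to 86.9 CPM of Ptges throughout. The 7 fibroblast markers summed to 440 and 692 CPM in the control groups and 237 and 121 CPM in the IR groups, and Lum alone was at 0, in the cKO cells after IR. Without the fibroblast-like cells the cKO ratio over the remaining cells was 0.91. With the stricter hashtag rule for WT the WT ratio over all cells was 0.61, of opposite sign. Inside cluster 1, which held most macrophage-like Ptges, the WT level was 32.8 CPM in control and 28.9 CPM after IR (log2 −0.18, −0.50 to 0.14), while the cKO level rose from 12.9 to 21.3 CPM (0.72, 0.32 to 1.15). Cluster 1 grew from 548 to 846 WT cells and from 548 to 1233 cKO cells.

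**Figure D3:**
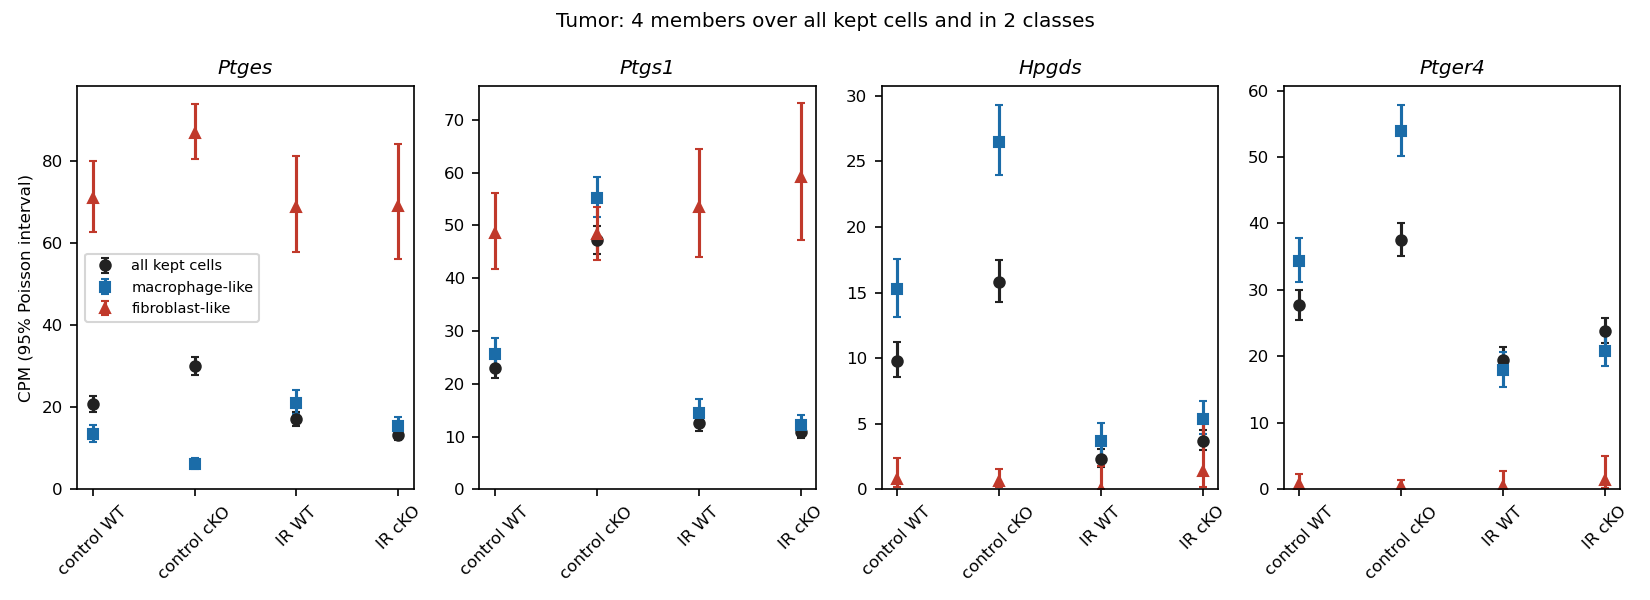
CPM of Ptges, Ptgs1, Hpgds and Ptger4 in the 4 tumor groups over all kept cells (black circles), macrophage-like cells (blue squares) and fibroblast-like cells (red triangles), with exact Poisson intervals. Ptges over all cells falls after IR in cKO cells while the macrophage-like level rises from 6.2 to 15.3 CPM, and Ptger4 in macrophage-like cells falls in both genotypes.

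Ptgs2 changed little with IR in tumor as a whole. It was at 791 CPM in control WT, 967 CPM in IR WT, 975 CPM in control cKO and 961 CPM in IR cKO cells, with log2 ratios of 0.29 (0.26 to 0.32) in WT and −0.02 (−0.05 to 0.00) in cKO cells. The control WT group was the low one, and with the stricter hashtag rule for WT the WT ratio was 0.11. Within cluster 1 the ratios were −0.11 and −0.46, within cluster 0 −0.49 and −0.99, and within cluster 2 −0.97 and −1.61. Ptgs2 was thus lower after IR inside each macrophage-like cluster in both genotypes, while cluster 1, with the highest Ptgs2 of these clusters (1947 CPM), took a larger part of the cells. By whole classes and unnamed clusters, 3 of 6 WT ratios had intervals above 0 and 0 below, with ratios from −0.09 to 0.30. In cKO cells 0 of 5 were above and 4 below, from −1.02 to −0.10. The part of cell composition in these values was not tested. Cluster 12 held 323 WT and 247 cKO cells after IR and 15 and 20 cells in control tumors, at 3036 and 2746 CPM of Ptgs2 after IR. Its neutrophil markers Cxcr2 and G0s2 were raised, under the 3 needed for a name, and over all tumor cells the 11 neutrophil markers summed to 230 and 252 CPM in control and 2075 and 1319 CPM after IR. Camp was at 0 in 3 of these groups and Ngp in 2, and the part of such cells in the Ptgs2 sums was not tested.

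The EP4 gene Ptger4 fell with IR in tumor macrophages. Over all cells it went from 27.7 to 19.4 CPM in WT and from 37.5 to 23.9 CPM in cKO cells, log2 ratios of −0.51 (−0.69 to −0.33) and −0.65 (−0.80 to −0.51). In macrophage-like cells the fall was from 34.4 to 17.9 CPM (log2 −0.94, −1.20 to −0.69) and from 53.9 to 20.9 CPM (−1.37, −1.57 to −1.18). In the WT cells of clusters 0 and 1 the ratios were −0.89 and −0.79, and in the cKO cells of clusters 0, 1 and 2 they were −1.31, −1.499 and −1.34. In dendritic cell-like cells it went the other way in WT, from 29.7 to 69.3 CPM (1.20, 0.64 to 1.82), and in cKO cells it was at 72.8 and 68.5 CPM. Ptger2, the EP2 gene, was at 6.9 and 7.8 CPM in WT and 5.8 and 8.3 CPM in cKO cells, with log2 ratios of 0.17 (−0.15 to 0.50) and 0.51 (0.20 to 0.83).

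Of the remaining tumor members, Hpgd was low everywhere, at 9.6 and 5.9 CPM in WT and 4.8 and 4.6 CPM in cKO cells. In cluster 7, which held 69.9% of tumor Hpgd UMIs, it fell with IR from 48.4 to 25.6 CPM in WT (log2 −0.91, −1.29 to −0.55) and from 43.8 to 26.5 CPM in cKO cells (−0.72, −1.21 to −0.23). Alox5 was at 6.3 and 4.7 CPM in WT and 10.8 and 5.7 CPM in cKO cells, with macrophage-like log2 ratios of −0.38 (−0.82 to 0.05) and −1.16 (−1.501 to −0.84). Alox5ap was at 590.4 and 705 CPM in WT and 460.0 and 707 CPM in cKO cells, and its macrophage-like ratios were 0.15 and 0.21. Lta4h stayed at 30.8 to 37.3 CPM in the 4 tumor groups.

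**Figure D4:**
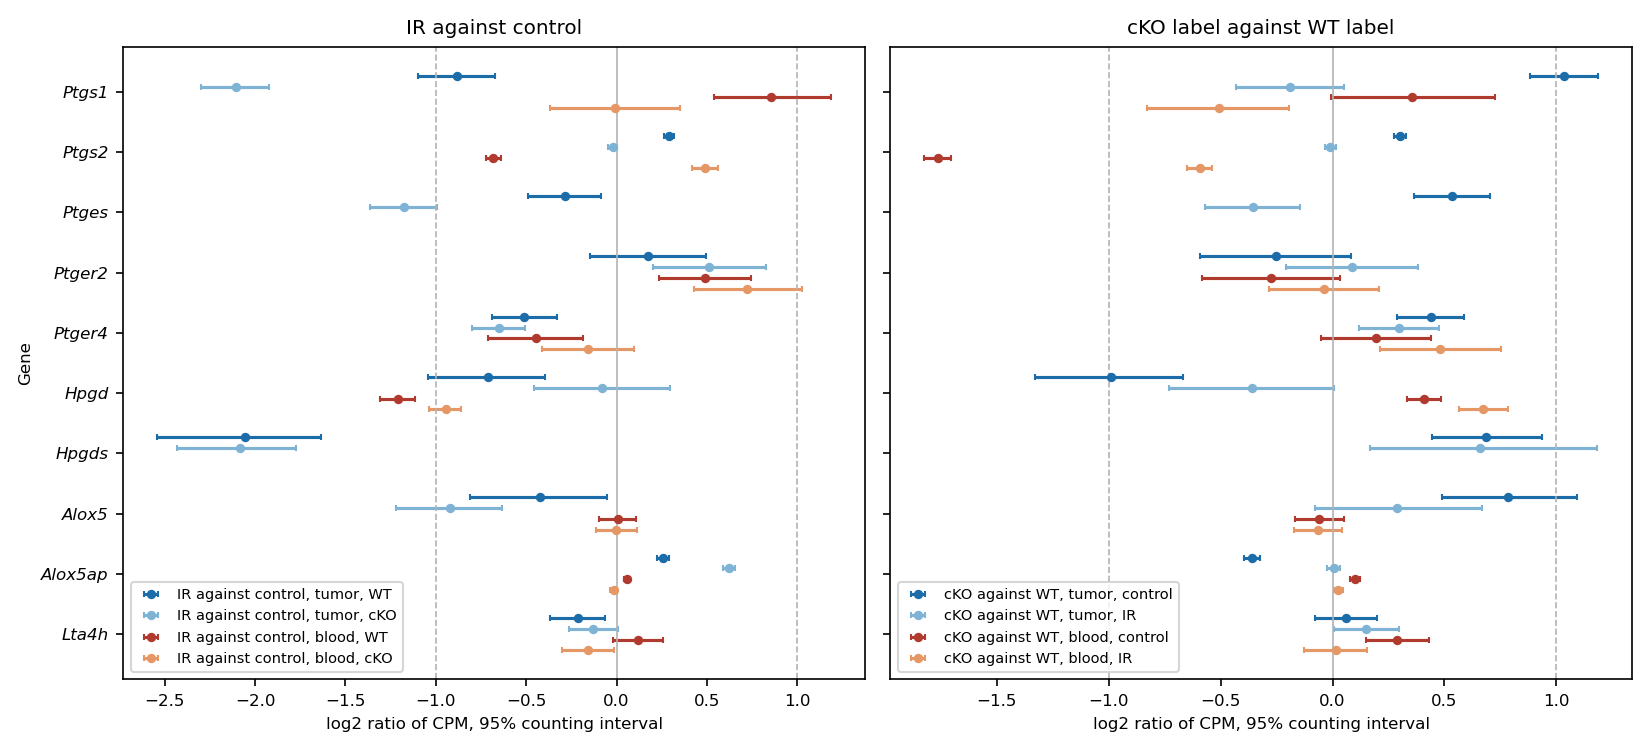
Log2 ratio of CPM of the members (rows) for IR against control (left) and cKO against WT (right) in tumor and blood, with counting intervals and dashed lines at the limit of 1. Ptgs1 and Hpgds in tumor lie left of the limit after IR in cKO cells, and Ptgs2 in blood control lies left of it for cKO against WT (−1.76).

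IR given to the tumor was also followed in blood. Of the 8 members with at least 100 UMIs (Ptges and Hpgds had too few), 1 passed the limit in WT cells, Hpgd, lower after IR, against 1.27% of all genes tested. In cKO cells 0 members passed, against 1.42% of all genes. The median log2 ratio of the members was 0.03 and −0.01, beside 0.03 and 0.06 over all genes.

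Hpgd fell in blood in both genotypes. It was at 114 CPM in control WT, 49.2 CPM in IR WT, 151 CPM in control cKO and 78.6 CPM in IR cKO cells. The log2 ratios were −1.21 (−1.31 to −1.11) and −0.95 (−1.04 to −0.86). Here too both control groups, of the same library, were above both irradiated groups, of another library. In nonclassical monocyte-like cells it fell from 278 to 152 CPM in WT and from 339 to 246 CPM in cKO cells. In monocyte-like cells it fell from 94.6 to 35.0 CPM and from 85.8 to 49.97 CPM, and in WT dendritic cell-like cells from 261 to 83.5 CPM. All 5 of these class ratios had intervals below 0, from −1.63 to −0.46. The nonclassical monocyte-like share of cells, the class richest in Hpgd, was 13.7% in control WT, 9.51% in IR WT, 19.4% in control cKO and 10.04% in IR cKO cells.

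Ptgs2 in blood moved in opposite directions in the genotypes after IR. It was at 466 CPM in control WT, 290.5 CPM in IR WT, 137 CPM in control cKO and 192 CPM in IR cKO cells, with log2 ratios of −0.68 (−0.72 to −0.64) and 0.49 (0.42 to 0.56). In neutrophil-like cells the levels were 1099, 669, 307 and 481 CPM in the same order, with ratios of −0.72 and 0.65. Inside the neutrophil-like clusters the WT ratios were −0.53, −0.56, −0.59 and −0.93 in clusters 15, 16, 17 and 18. The cKO ratios there were 0.46 (0.11 to 0.79), −0.07 (−0.18 to 0.05), 0.16 (−0.09 to 0.42) and −0.36 (−0.49 to −0.22). The WT fall was therefore present in each of these clusters, while the cKO rise was outside its counting interval in cluster 15 only. Cluster 15 held 1293 of 2712 control cKO neutrophil-like cells and 112 of 2929 after IR.

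Of the other blood members, Ptger2 rose from 9.0 to 12.7 CPM in WT and from 7.5 to 12.3 CPM in cKO cells, log2 ratios of 0.49 (0.23 to 0.75) and 0.72 (0.43 to 1.03). Both irradiated groups, of the same library, were above both control groups, of another library. Ptgs1 was at 5.1 and 9.3 CPM in WT and 6.6 and 6.5 CPM in cKO cells, log2 ratios of 0.85 (0.54 to 1.19) and −0.01 (−0.37 to 0.35). Ptger4 was at 11.8 and 8.7 CPM in WT and 13.5 and 12.1 CPM in cKO cells. Alox5 was at 61.7 to 64.6 CPM, Alox5ap at 1737 to 1862 CPM and Lta4h at 34.0 to 41.5 CPM in the 4 blood groups. In cKO neutrophil-like cells Lta4h went from 35.5 to 17.1 CPM (log2 −1.05, −1.36 to −0.75). The Lta4h-rich cluster 20 held 88 of the control cKO cells, 16 WT cells in control and 16 WT cells after IR.

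The genotype labels were compared next, to see what the floxed allele with Lyz2-driven Cre goes with. In tumor control 1 of 10 members passed the limit, Ptgs1, higher in cKO cells, against 4.8% of all genes tested, and in tumor IR 0 passed, against 0.976%. In blood control 1 of 8 passed, Ptgs2, lower in cKO cells, against 2.12% of all genes, and in blood IR 0 passed, against 0.695%. The member medians were 0.37, 0.04, 0.15 and −0.01 on the log2 scale, beside 0.11, 0.03, 0.01 and 0.05 over all genes.

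In blood control, cells labelled cKO had the lowest Ptgs2 of the 8 groups, 137 CPM against 466 CPM in WT, a log2 ratio of −1.76 (−1.82 to −1.70). The share of cells with a Ptgs2 UMI was 22.7% against 48.0%, at median depths of 3172 and 2844 UMIs. After thinning to 1000 UMIs per cell, 19.2% of cKO and 47.7% of WT neutrophil-like cells of blood control held one, against 1.3% of all blood B cell-like cells. In neutrophil-like cells the levels were 307 and 1099 CPM (−1.84, −1.91 to −1.78). In nonclassical monocyte-like cells they were 35.8 and 108 CPM, below and above the level of blood B cell-like cells (66.8 CPM). All 3 classes tested for Ptgs2 here passed the limit, lower in cKO cells. Neutrophil-like cells of the genotypes came from different clusters: cluster 15, led by Wfdc21, Retnlg and Lcn2, held 1293 of 2712 cKO but 122 of 3453 WT cells, and cluster 16, led by Csf3r and Slc40a1, held 616 cKO and 1912 WT cells. Inside clusters, Ptgs2 was at 154 CPM in cKO and 614 CPM in WT cells in cluster 15 (log2 −1.997), 700 and 1290 CPM in cluster 16 (−0.88), 447 and 1060 CPM in cluster 17 (−1.24) and 470 and 925 CPM in cluster 18 (−0.98). Each cluster had the same direction, and 3 of 4 had a smaller difference than the class as a whole.

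After IR the blood difference was smaller and had the same direction. Ptgs2 was at 192 CPM in cKO and 290.5 CPM in WT cells, a log2 ratio of −0.59 (−0.65 to −0.54). In neutrophil-like cells it was −0.48, and by cluster −0.999, −0.40, −0.49 and −0.40 in clusters 15 to 18. The cKO groups were thus below the WT groups in both treatments and in each of the 4 clusters. Hpgd was higher in cKO blood cells in both treatments, with ratios of 0.41 (0.33 to 0.48) and 0.67 (0.57 to 0.78), and in nonclassical monocyte-like cells of 0.29 (0.20 to 0.37) and 0.69 (0.57 to 0.82). Alox5 differed by no more than its counting interval in both treatments, with ratios of −0.06 (−0.17 to 0.05) and −0.07 (−0.17 to 0.04). Lta4h in control neutrophil-like cells was at 35.5 CPM in cKO and 18.02 CPM in WT cells (0.97, 0.70 to 1.26).

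**Figure D5:**
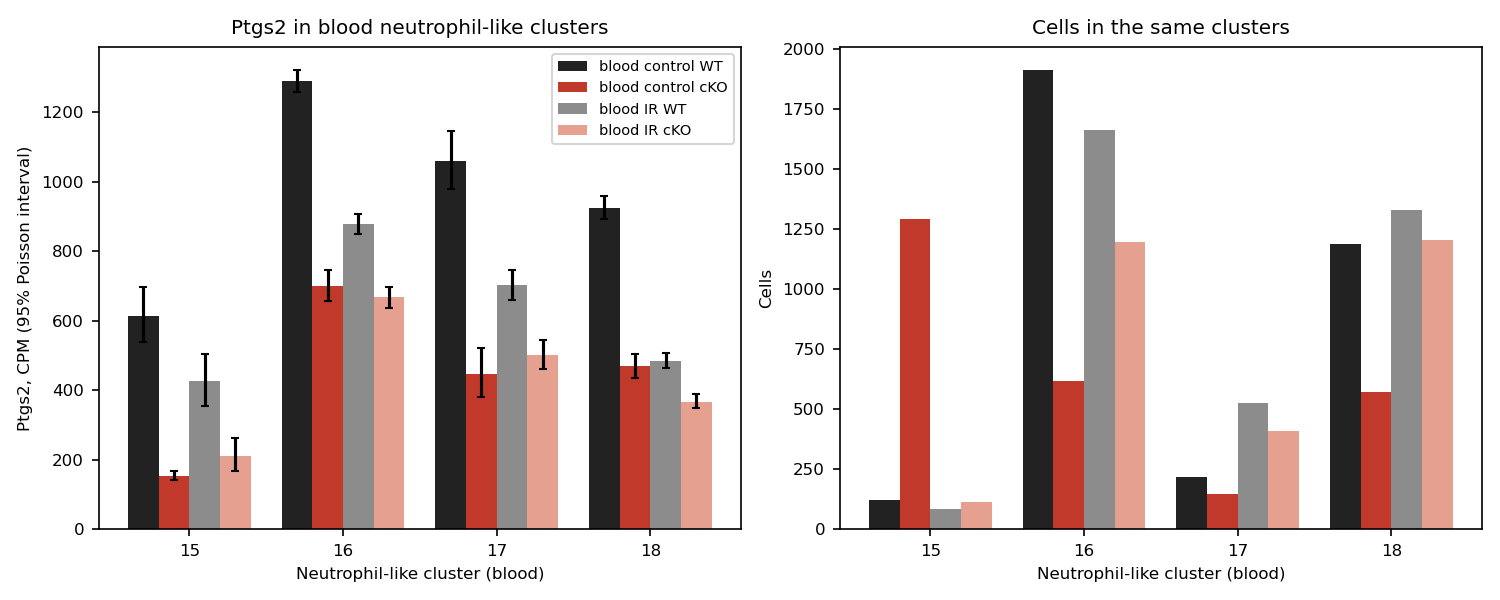
Ptgs2 in 4 blood neutrophil-like clusters (left, CPM with exact Poisson intervals, bars from 0) and the number of cells of each group in them (right). The cKO bars of blood control lie below the WT bars in all 4 clusters, and cluster 15 holds 1293 of the cKO control cells but 122 of the WT control cells.

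In tumor control, Ptgs1 was at 47.2 CPM in cKO and 23.0 CPM in WT cells, a log2 ratio of 1.03 (0.88 to 1.19). In macrophage-like cells it was 1.11 (0.92 to 1.30), at 55.3 and 25.6 CPM, and in fibroblast-like cells the levels of 48.4 and 48.5 CPM differed by less than the counting interval (−0.27 to 0.26). By cluster the ratio was 1.001 in cluster 1 and 0.29 (0.06 to 0.52) in cluster 2, which held 586 of 1484 cKO and 248 of 1580 WT macrophage-like cells. After IR the groups were at 10.9 and 12.5 CPM (−0.19, −0.43 to 0.05). With at least 4 times as many B0301 as B0302 UMIs required for WT, the rule cKO cells met already, the control ratio was 0.77 and no longer passed, and over the 15 settings tried it lay between 0.77 and 1.38.

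Several other members were higher in cKO than in WT cells of control tumors without passing the limit, and these values depended on how WT cells were assigned. Hpgds differed by 0.69 (0.45 to 0.93), Alox5 by 0.78 (0.49 to 1.09), Ptger4 by 0.44 (0.29 to 0.59) and Ptges by 0.53 (0.36 to 0.70) on the log2 scale. With the stricter hashtag rule for WT they were 0.17 for Hpgds, 0.36 for Alox5, 0.17 for Ptger4 and 1.28 for Ptges, which then passed. Ptger4 was higher in cKO cells in cluster 0 (0.73), cluster 1 (0.83), cluster 2 (0.44) and cluster 7 (1.01). Ptges in macrophage-like cells went the other way, at 6.2 CPM in cKO and 13.6 CPM in WT cells (−1.11, −1.51 to −0.75), and stayed lower after IR (−0.46, −0.74 to −0.18). Fibroblast-like cells were 11.9% of cKO and 4.85% of WT cells in control tumors. Hpgd differed by −0.99 (−1.33 to −0.67) over all cells but by −0.14 (−0.61 to 0.31) in cluster 7, which held 203 cKO and 464 WT control cells, and by −0.08 over all cells with the stricter rule. Ptgs2 differed by 0.30 (0.27 to 0.33) over all cells and by 1.32 (1.18 to 1.46) in cluster 7, at 669 against 269 CPM. With the stricter rule the Ptgs2 difference over all cells was 0.00. The class and cluster values in tumor are given with the first hashtag rule only, not with the stricter one.

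Tumor and blood cells differed in most members, as did many other genes. Of the members tested, 7 of 10 passed the limit in control WT, 8 of 10 in control cKO, 6 of 9 in IR WT and 6 of 10 in IR cKO cells, where 36.3%, 44.1%, 33.2% and 32.6% of all genes passed. Ptges was higher in tumor by 3.98 to 5.09 on the log2 scale in the 4 comparisons and Ptger4 by 0.98 to 1.47. Hpgd was lower in tumor by log2 ratios of −4.96 to −3.06, Alox5 by −3.78 to −2.51 and Alox5ap by −2.02 to −1.36. Ptgs2 was higher in tumor by 0.76 in control WT, 2.83 in control cKO, 1.73 in IR WT and 2.32 in IR cKO cells, and the spread came mostly from the blood levels. Ptgs1 was higher in tumor by 0.42 to 2.84 (in IR WT cells its 0.42 turned to −0.56 with the mean of per-cell CPM), Hpgds by 2.17 to 3.24 where tested, Ptger2 lay between −0.70 and −0.36 and Lta4h between −0.26 and 0.07. Tumor held almost no cells named neutrophil-like and blood almost none named macrophage-like, so tissue and cell class cannot be told apart here. Tumor cluster 12, with the neutrophil markers Cxcr2 and G0s2 raised, was under the 3 markers needed for that name.

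The wider eicosanoid pathway, a list of 63 other genes of which 62 were in the matrices, was read in the same way. Of 28 to 29 listed genes with enough UMIs, 0 passed the limit in the IR comparisons of tumor WT, blood WT and blood cKO cells and in the 4 genotype comparisons. Of all genes tested, 6.48%, 1.27% and 1.42% passed in these IR comparisons and 0.695% to 4.8% in the genotype comparisons. With so few listed genes, the counts of 0 are no result about the pathway. In tumor cKO cells 4 of 29 were higher after IR and 2 lower, a share near the 22% of all genes that passed in that comparison, so the values are given as a description only. Higher were Pla2g7, a phospholipase that inactivates platelet-activating factor (135 to 335 CPM, log2 1.32), the leukotriene B4 receptor Ltb4r1 (117 to 278 CPM, 1.25), the prostacyclin receptor Ptgir (3.4 to 6.9 CPM, 1.03) and the cysteinyl leukotriene receptor Cysltr2 (1.1 to 3.1 CPM, 1.49). Lower were the phospholipase Pla2g12a (27.3 to 13.2 CPM, −1.05) and Zadh2 (−1.34). In WT tumor cells Pla2g7 and Ltb4r1 had the same direction, at 164 and 286 CPM (0.80) and at 172 and 259 CPM (0.59).

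Between tissues, 7 to 11 of 29 to 30 wider-list genes passed higher in tumor and 3 to 6 higher in blood, where 32.6% to 44.1% of all genes passed. In IR WT cells the 7 higher and 3 lower genes of 29 lay near the 33.2% of all genes. Phospholipase Pla2g4a, which releases arachidonic acid, was at 38.8 to 62.7 CPM in tumor and 9.99 to 16.96 CPM in blood, the fatty acid ligase Acsl4 at 62.5 to 77.1 and 13.7 to 17.4 CPM, and the leukotriene transporter Abcc1 at 36.0 to 52.5 and 10.02 to 13.8 CPM. The cysteinyl leukotriene receptor Cysltr1 was at 37.5 to 54.6 CPM in tumor and 11.7 to 19.3 CPM in blood, and the leukotriene C4 synthase Ltc4s at 5.2 to 10.7 and 1.1 to 2.3 CPM. Tbxas1, the thromboxane synthase, passed in 3 of 4 comparisons, at 44.8 to 61.4 and 20.1 to 28.9 CPM. Mboat7, which rebinds arachidonate to membrane lipids, was at 18.1 to 25.9 CPM in tumor and 75.6 to 78.5 CPM in blood, and Ggt5 at 1.4 to 2.2 and 32.0 to 42.8 CPM. The leukotriene B4 hydroxylase Cyp4f18 was at 109 to 185 CPM in tumor and 286 to 315 CPM in blood. The rule for named genes also took Dpep2, Mgst2, Mgst3 and Prxl2b.

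The genes most like the members other than Alox5ap were read over 47 units of class and group (at least 50 cells each) among 10128 genes, by Pearson's r of log2(CPM + 10). These units share libraries, so r is a description. Ptgs2 was most like Cxcl2 (0.94), Ets2 (0.91) and Acod1 (0.90), and Ptges most like Fblim1 (0.97), Akr1b8 (0.95) and Cav1 (0.95). Alox5 was most like Nlrp12 (0.94), Gm16556 and Gm39556, and Hpgd most like Plxna4os1 (0.93), Slc46a3 (0.92) and Cd300lg (0.89). Ptgs1 was most like Ptgfrn, Cela1 and Vcam1 (each 0.81), Hpgds most like Fcrls (0.73), Il10 and Csf3, Ptger2 most like Trem3 (0.83), Dgat2 and Slpi, Ptger4 most like Tmem123 (0.82), Etv3 and Gpr132, and Lta4h most like 1700025G04Rik (0.89), Asrgl1 and Anxa6.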

How the data were processed

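Single-cell 3′ gene expression with hashtag antibodies was measured in 4 libraries. The authors aligned reads with Cell Ranger 6.0.1 to mm10 (the file headers name Cell Ranger 4) and deposited raw UMI counts for all barcodes, which were used here as deposited. Their own clustering used Seurat 4.0.6. Barcodes with at least 500 gene UMIs, 200 genes, at most 25% mitochondrial UMIs and at least 20 hashtag UMIs were kept. Cells with at least 4 times as many B0302 as B0301 UMIs were labelled cKO and cells with at least as many B0301 as B0302 UMIs WT, and 1608 mixed barcodes were left out. A barcode with hashtags in both tumor matrices was given to the matrix with more of them. Gene UMIs per matrix ranged from 51653956 to 87703837. Clusters came from scanpy 1.11.5 (Leiden resolution 1, 2000 variable genes, 40 principal components, the 75 genes of interest left out). A cluster was named when at least 3 markers of a list were raised (UMIs in 25% of its cells and a 2-fold higher level). No doublet caller was applied in the main analysis. Leaving out the 6% of cells with the highest Scrublet scores was one alternative.

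Sums of UMIs over the cells of a group, divided by their total gene UMIs, gave CPM. Log2 ratios had 1 UMI, scaled to depth, added to each sum. Intervals were exact (Poisson for levels, conditional binomial for ratios) and cover counting error only. A gene was tested with at least 100 UMIs over both groups and counted past the limit at an absolute log2 ratio of 1. The 10 genes were all named. Genes of the wider list were named where they passed in at least 2 of 12 comparisons, and Zadh2 after its values had been seen. For each gene, the 3 genes with the highest Pearson r over the 47 units were named, except for Alox5ap, for which they are not reported here. Thinned shares used 1000 UMIs per cell, which 624 cells did not reach. The genes, the lists and the alternatives were chosen with earlier results of these data known, and the promoter motifs after the sequences had been seen. The ratio script was tested on simulated data. Promoters came from RefSeq (GRCm38.p6), in which 9 of 10 genes were matched. Analyses used Python 3.11.15, numpy 2.4.6, scipy 1.17.1, pandas 2.3.3, matplotlib 3.10.9 and edgeR 4.0.16 (TMM factors only).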

Additional observations from a re-analysis of the deposited data

Results flagged for a closer look

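In 75 pairs of IR contrasts compared between genotypes or tissues, 3 moved in opposite directions with both log2 ratios at least 0.5 in size and both counting intervals off 0. The differences themselves were not tested, since each group was 1 pool.

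Ptgs2 in blood neutrophil-like cells fell by 0.72 on the log2 scale after IR in WT cells and rose by 0.65 in cKO cells, from 1099 to 669 CPM and from 307 to 481 CPM. Cluster 15 held 1293 of the control cKO cells and 112 of the irradiated ones. Whether that shift accounts for the rise was not tested, and the cKO ratios within clusters 15, 16, 17 and 18 were 0.46 (0.11 to 0.79), −0.07 (−0.18 to 0.05), 0.16 (−0.09 to 0.42) and −0.36 (−0.49 to −0.22).

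Ptgs1 over all kept WT cells had a log2 ratio of −0.88 after IR in tumor and 0.85 in blood. Different cell classes were summed in the tissues, so tissue and class cannot be told apart. Alox5ap in fibroblast-like cells had a log2 ratio of −0.61 in WT cells (33.2 to 21.6 CPM) and 1.76 in cKO cells (8.30 to 28.6 CPM). Free RNA held 546 CPM of Alox5ap in tumor control and 682 CPM in tumor IR, and its part in these low levels was not tested.

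All 10 members were above the floor of 3 UMIs in the barcodes left out for too few hashtags in tumor control, and all 10 in those of tumor IR. Ptgs1 was at 11.4 CPM in the 7289 barcodes left out of tumor control and at 35.1 CPM in the 4919 left out of tumor IR, and Hpgds at 2.86 and 11.8 CPM. In the kept cells both genes had the opposite order. Of the 4958 tumor IR barcodes under the hashtag minimum, 4955 had hashtags in the tumor control matrix. Of the 7327 such barcodes of tumor control, 7325 had hashtags in the tumor IR matrix. Assigned to the matrix that held their hashtags, the left-out barcodes had the same order as the kept cells. They were largely the same barcodes as cells of that other matrix, so this order is no check on independent cells.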

How the results depend on the processing

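With 1 pool per group no replicate could be left out. No paired analysis was possible because no group has more than 1 sample. Of 183 counts under alternatives, mostly of members past the limit under 15 settings, 169 were within 1.5 times the count reported. An equal count can be of other members, as with Ptges in place of Ptgs1 under the stricter hashtag rule. The counts that moved further were these. They are given without the share of all genes past the limit in the same setting, so they are not results about the members. With the mean of per-cell CPM, 2 members passed for IR in tumor WT, 1 for IR in blood cKO and 2 for genotype in tumor control. In the commonest class of each tissue, 5 passed for IR in tumor cKO, 0 for IR in blood WT, 1 for IR in blood cKO and 2 for genotype in tumor control. Without lymphocyte-, basophil- and fibroblast-like cells, 2 passed for IR in tumor WT and 3 for genotype in tumor control, and without fibroblast-like cells alone (an alternative added after seeing the data) 2 and 2. With free RNA subtracted, 2 passed for genotype in tumor control. With a minimum of 20 UMIs per gene, and with none, 1 passed for IR in blood cKO (Hpgds). The Ptges ratio for IR in tumor cKO cells reversed to 1.29 in the commonest class, 0.90 without lymphocyte-, basophil- and fibroblast-like cells and 0.91 without fibroblast-like cells, which held most tumor Ptges UMIs. For the other counts the cause was not tested.

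Of 1651 member ratios under alternatives, 1392 stayed within the counting interval. A further 256 moved out of it, some of them with a change of sign of a ratio that had not passed the limit. Ptges for IR in tumor WT went from −0.29 to 0.61 with the stricter hashtag rule and to 0.63 in the commonest class. Ptges for genotype in tumor control went from 0.53 to −0.22 with the mean of per-cell CPM, −1.11 in the commonest class, −1.01 without lymphocyte-, basophil- and fibroblast-like cells and −0.98 without fibroblast-like cells alone. Ptgs1 between tissues in IR WT went from 0.42 to −0.56 with the mean of per-cell CPM. The genotype ratio of Ptgs2 in blood control lay between −1.93 and −1.61 and passed in 15 of 15. With the stricter hashtag rule Ptgs1 for genotype in tumor control was 0.77. It was 0.98 with TMM-scaled library sizes and 0.95 with UMIs added over both tumor matrices, and Ptges passed in its place under the hashtag rule. The class with the highest level was kept for 10 of 10 members at Leiden resolution 2 and for 9 of 10 at 0.5.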
